A study of Mus musculus with 6 samples.

Results

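Genes that report on and restrain MAP kinase signalling were compared in brain endothelium with and without Ccm3. The group holds 10 genes: Mapk7, the transcription factors Mef2a, Mef2c and Mef2d, the phosphatases Dusp1 and Dusp6, and the inhibitors Spry1, Spry2, Spry4 and Spred1. They were taken by symbol from 14437 listed genes, and all 10 were found once each and passed the filter on low values. The libraries came from endothelial cells of the cerebellum of C57BL6 mice at postnatal day 9, 3 from wild-type mice and 3 from mice labelled Ccm3 knock-out, with 1 numbered mouse named for each library. Cells were taken with CD45 and CD31 beads, and total RNA was sequenced after removal of ribosomal RNA. The sources used here give neither the deleted part of Ccm3 nor the promoter, driver or age of deletion, so whether other cell types of these mice also lost the gene is not known here.

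Growth factors drive the kinases ERK1 and ERK2 through Ras, Raf and MEK, and active ERK1/2 switches on genes that shut the pathway down again. Sprouty and Spred proteins act near Ras and Raf, and dual-specificity phosphatases remove the activating phosphates from MAP kinases. The transcripts of these inhibitors are therefore widely used as readouts of the pathway. A related arm runs from the kinase MEKK3 (Map3k3) through MEK5 (Map2k5) to ERK5 (Mapk7), which phosphorylates MEF2 factors and raises Klf2 and Klf4 in endothelium. In endothelium the CCM protein complex restrains MEKK3, and Ccm3, also named Pdcd10, is 1 member of that complex.

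Of the 10 genes, Mef2c rose in the knock-out, none fell and 9 were not called. Mef2c was 1.35-fold higher (95% interval 1.15 to 1.58). The next smallest p-values belonged to Spry1, at 0.685 of the wild-type level, and Dusp1, at 1.33 times that level. Neither passed the limit of 0.05 on the adjusted p. Over all 14076 genes tested with limma, 3.60% rose and 2.64% fell at this limit, and 1 call among 10 genes is to be read against these shares. Mean log2 values were higher in the knock-out for 8 of the 10 genes and lower for Spry1 and Spred1. The median log2 change of the 10 genes was 0.21, beside -0.01 for all genes tested. The groups did not overlap for 5 of the 10. All 3 knock-out libraries lay above all 3 wild-type libraries for Mef2a, Mef2c and Dusp1 (12.8% of all genes tested did so), and below them for Spry1 and Spred1 (12.8%). The unadjusted p was under 0.05 for the same 5 genes, beside 19.0% of all genes tested. These 10 genes and the pathway lists below were chosen with earlier results of these data known. Their counts and medians are therefore descriptions, and setting them beside the shares of all genes is no test.

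**Figure D1:**
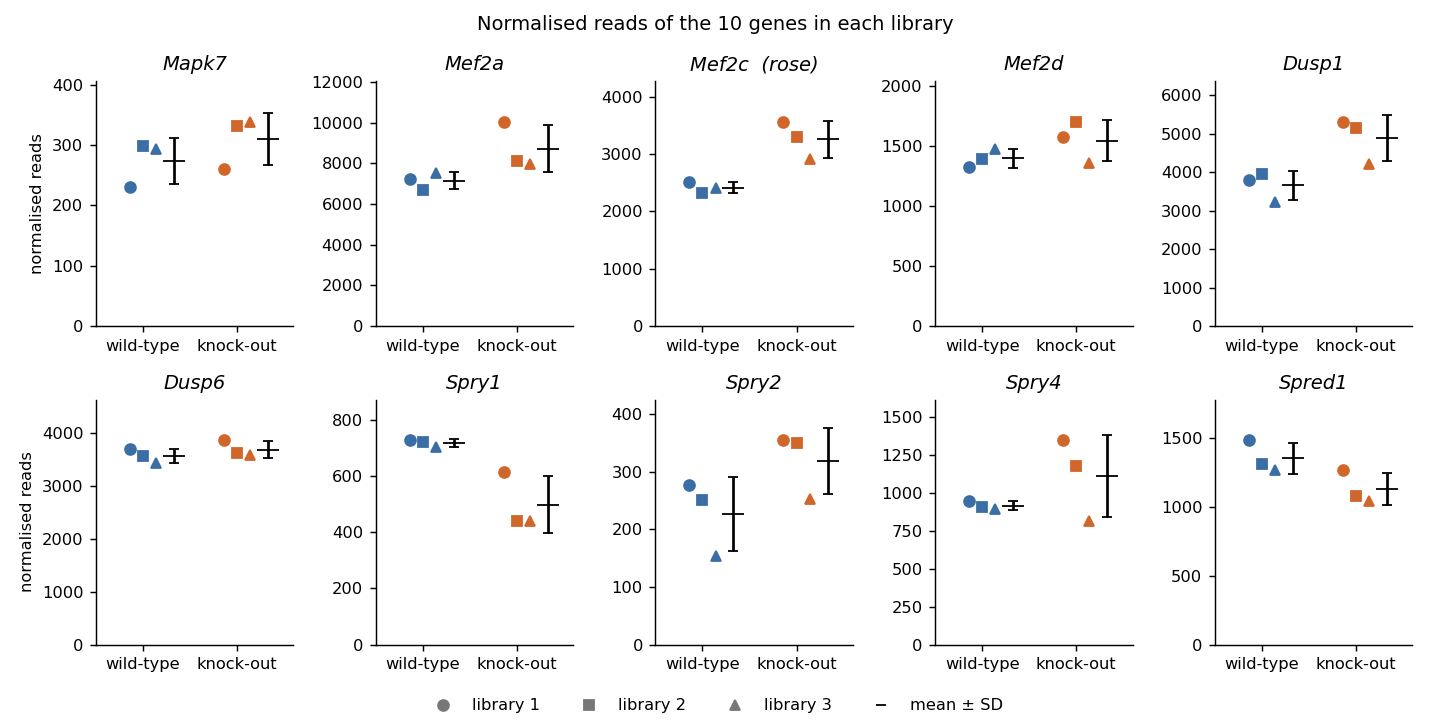
Normalised reads (y axis, linear, from 0) of each of the 10 genes in the wild-type (blue) and knock-out (orange) libraries. Symbols mark library 1, 2 and 3, and the bar is the mean ± SD (n = 3). The knock-out points of Mef2a, Mef2c and Dusp1 stand above every wild-type point, those of Spry1 and Spred1 stand below, and the other 5 genes overlap.

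The libraries held 11075769 to 21142333 reads on the listed genes. Values are reads divided by the authors' size factor, called normalised reads, and a fold is the knock-out level divided by that of wild-type. Pdcd10 had 522 to 689 normalised reads in the wild-type libraries and 154 to 309 in the knock-out libraries, a fall to 0.39 of the wild-type level (limma adjusted p = 0.0162). Leaving out wild-type 1, 2 or 3 ended that call (adjusted p = 0.0511, 0.0605 and 0.0619). All 8 endothelial markers were present, with summed values of 91796 to 99891 in wild-type and 80625 to 98616 in knock-out libraries. None of them passed the limit, but some did not overlap between genotypes. Pecam1 was higher in every knock-out library (log2 change 0.41, limma adjusted p = 0.0669). Kdr, Cldn5 and Erg were lower in every one (-0.39, -0.37 and -0.16, adjusted p = 0.167, 0.0813 and 0.428). The others overlapped. The 10 pericyte markers were also abundant, at 42999 to 84749 and 43952 to 57854, and overlapped. Astrocyte markers summed to 5401 to 6398 in wild-type and 3083 to 3556 in knock-out libraries, and 1 of 8, Gja1, fell. Gja1 held most of these sums, 6 of the 8 overlapped between genotypes, and without Gja1 the sums overlapped too (1276 to 2773 in wild-type, 893 to 1461 in knock-out). Red cell markers summed to 7238 to 13883 and 3925 to 4734, and 3 of 5 fell. Platelet markers were low, at 82.4 to 92.8 and 111 to 320.1, with Pf4, Ppbp and Gp9 not listed and 1 of 3, Tubb1, risen. These counts of called markers stand beside 3.60% risen and 2.64% fallen among all genes tested. The Y-linked genes summed to 1.49 in wild-type 1 and to between 813 and 4017 in the other 5 libraries. Each library is labelled as 1 mouse, yet these 5 differ several-fold, so the Y-linked level used as a covariate below is not a plain record of sex. On the log2 scale of that covariate wild-type 1 stood far below the other 5. Fits with it and fits without wild-type 1 (457 and 399 genes called) are therefore not separate checks. In such bulk libraries, fewer cells of a type and less RNA per cell cannot be told apart.

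Promoter sequence is shown where a known site of a factor in this pathway lies in it. Of the 10 genes, 9 were matched to 12 RefSeq windows of GRCm38.p6, each running from 250 bases before to 50 bases after an annotated start. The cAMP response element TGACGTCA, bound by CREB, was found in 1.79% of 32851 windows and, among the 9 genes with a window, only for Dusp1. The MEF2 consensus was found in 3.19% of windows, for Mef2a among these 9 genes and in that of Klf2, which MEF2 is known to activate. Klf4 was looked up together with Klf2 and had no match to any of the elements searched. The serum response element (1.63% of windows) and the ETS site CCGGAAGT (3.89%) had no match in the 12 windows of these 9 genes. Both strands were searched. The stretches below were picked for their match. The capitals mark the element. The stretches lie on chr17:26508563-26508660 (minus strand, element 143 to 136 bases before the RefSeq start of Dusp1, which lies inside the longer GENCODE span given below), chr7:67372809-67372905 (minus strand, element across the start of Mef2a) and chr8:72318899-72318998 (plus strand, element 118 to 109 bases before the start of Klf2).
Dusp1: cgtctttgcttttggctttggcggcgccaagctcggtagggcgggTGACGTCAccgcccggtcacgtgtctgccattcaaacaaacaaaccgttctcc
Mef2a: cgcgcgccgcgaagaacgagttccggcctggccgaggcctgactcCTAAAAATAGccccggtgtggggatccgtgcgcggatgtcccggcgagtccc
Klf2: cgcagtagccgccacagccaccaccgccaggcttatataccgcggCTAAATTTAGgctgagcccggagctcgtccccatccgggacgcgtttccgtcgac

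Levels of different genes were set side by side per kb of merged exon in GENCODE M21. Merged exon joins the exons of all annotated transcripts of a gene, 15715 bases for Mef2c and 14681 for Mef2a, against 3132 for Dusp6. The order of genes therefore depends on that annotation, and the transcripts in use were not measured. In wild-type libraries the highest were the phosphatases, Dusp6 with 1135 ± 41.6 and Dusp1 with 1106 ± 114 normalised reads per kb (SD, n = 3), whose libraries overlapped. About 98.0% and 97.9% of the genes tested lay below them. Mef2a followed with 487 ± 29.1. Spry1 (247 ± 4.62) and Mef2d (233 ± 13.0) overlapped, as did Spred1 (199.8 ± 16.9) and Spry4 (192 ± 6.17). Mef2c had 154 ± 6.53, Spry2 109 ± 31.0 and Mapk7 62.4 ± 8.65, each apart from its neighbour above in every wild-type library. Mapk7 stood near the middle of all genes tested, with 54.2% of them below it. In the knock-out libraries Spry1 came at place 7 by mean level, from place 4 in wild-type, and Dusp1 stood above Dusp6, at 1478 ± 179.9 against 1175 ± 48.3.

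**Figure D2:**
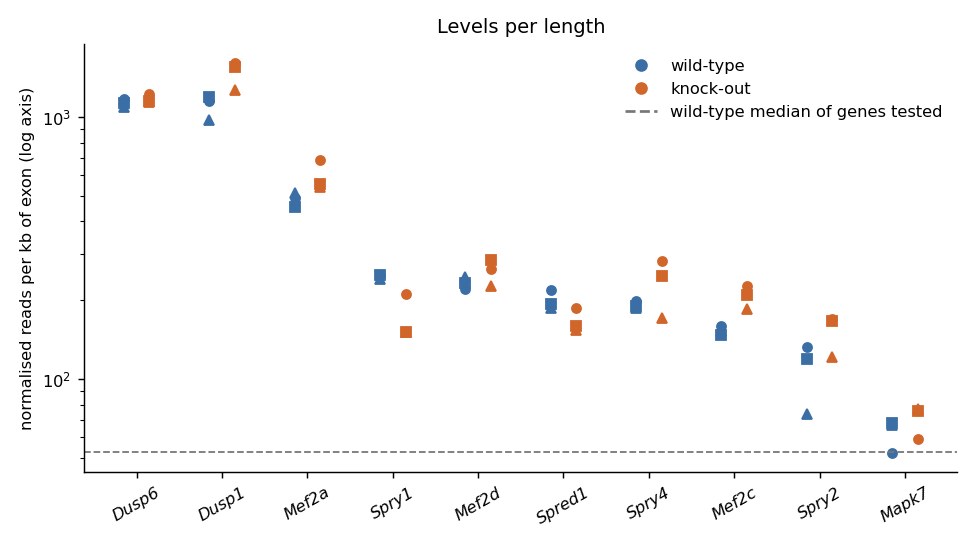
Normalised reads per kb of merged exon (y axis, log scale) for the 10 genes, ordered by their wild-type mean, with each wild-type library in blue and each knock-out library in orange. Symbols mark library 1 (circle), 2 (square) and 3 (triangle), and the dashed line is the wild-type median of all genes tested, 52.7. Dusp6 and Dusp1 are highest and Mapk7 lies closest to the line.

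Mapk7 encodes ERK5, the kinase that links MEK5 to the MEF2 factors. It lies on chromosome 11, 61488812 to 61494406 of GRCm38, on the minus strand. It measured 230.2, 298 and 293 normalised reads in wild-type 1, 2 and 3, against 260.3, 332 and 338 in knock-out 1, 2 and 3. The groups overlapped, since knock-out 1 lay below wild-type 2 and 3. The fold was 1.13 (95% interval 0.875 to 1.46, limma adjusted p = 0.632). Mfap4, on the opposite strand, shares 89 exon bases with Mapk7, which is 2.03% of its merged exon, and averaged 76.3 normalised reads in wild-type against 27.6 in knock-out libraries (limma adjusted p = 0.0562).

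The 3 kinases above ERK5 did not pass the test either. Map3k3, which encodes MEKK3, had 1493 to 1635 normalised reads in wild-type and 1553 to 1773 in knock-out libraries (fold 1.08, 95% interval 0.93 to 1.25, limma adjusted p = 0.586). Map3k2, which encodes the related kinase MEKK2, had a fold of 1.11 (0.91 to 1.36). Map2k5, which encodes MEK5, the MAP kinase kinase that activates ERK5, and named here after its values were seen, had a fold of 1.04 (0.86 to 1.27). The libraries of the 2 genotypes overlapped for all 3.

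Mef2c encodes a MEF2 factor needed for the development of heart and vessels, and is also expressed in neurons and microglia. It lies on chromosome 13, 83504034 to 83667080, on the plus strand. It measured 2519, 2313 and 2409 normalised reads in wild-type 1, 2 and 3, against 3559, 3298 and 2916 in knock-out 1, 2 and 3. Every knock-out library was above every wild-type library, and knock-out 3 was nearest to them. Wild-type averaged 2414 ± 103 and knock-out 3258 ± 323 (SD, n = 3). The log2 change was 0.43 (SE 0.10, limma adjusted p = 0.0432). The fit with the replicate number as a block gave an adjusted p of 0.0722. The call was also lost in 5 of the 6 fits without 1 library (adjusted p = 0.117, 0.201 and 0.134 without wild-type 1, 2 and 3, and 0.089 and 0.113 without knock-out 1 and 2), and it held without knock-out 3 (0.0196). With edgeR and DESeq2 on the recovered reads the adjusted p was 0.0398 and 0.0022.

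Markers of other cells that express Mef2c were read beside it. Microglia and leukocyte markers summed to 182 to 189.6 normalised reads in wild-type and 190.5 to 272 in knock-out libraries. Every knock-out sum was higher, with 7 of 9 listed and none of the 4 tested past the limit. Without Ptprc the sums overlapped (111 to 144 in wild-type, 110 to 172 in knock-out), and 6 of the 7 markers overlapped. C1qa, C1qb and Tmem119, too low to be tested, were at 13.3 or below in every library. Cx3cr1 and Csf1r, which were tested, had 27.3 to 44.6 and 52.7 to 82.9 and overlapped. Ptprc, the pan-leukocyte gene, had 37.4 to 72.0 in wild-type and 80.2 to 154 in knock-out libraries, with no overlap (limma adjusted p = 0.104). Neuron markers overlapped between genotypes, at 2649 to 3194 and 1581 to 4587. The part of these cells, of platelets and of sex in the rise of Mef2c was not tested. Fits that also held the mean log2 value of the Y-linked or pericyte markers gave a log2 change of 0.45 each, with adjusted p of 0.103 and 0.0643.

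By the distance between profiles over the 6 libraries, each centred on its own mean log2 value, 3 genes out of 7028 lay closest to Mef2c. They were B4galt1, a galactosyltransferase of protein glycosylation, at a root mean square distance of 0.029, Rap1b, a small GTPase of cell junctions, at 0.035, and Itpripl2 at 0.036. The profile of Mef2c itself had a root mean square of 0.23 around its mean. Itpripl2 rose, with a log2 change of 0.42 (limma adjusted p = 0.0394), while B4galt1 and Rap1b had log2 changes of 0.43 and 0.39 (0.0809 and 0.061). Log2 changes near that of Mef2c follow from the way these genes were picked, over the same 6 libraries. They are no separate evidence of shared regulation.

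Mef2a and Mef2d encode the other MEF2 factors measured, which bind the same DNA element. Mef2a (chromosome 7, 67231163 to 67372858) measured 7250.0, 6685 and 7521 normalised reads in wild-type 1, 2 and 3, against 10043, 8139.8 and 7956 in knock-out 1, 2 and 3. All knock-out libraries were higher, and knock-out 1 stood furthest out. The fold was 1.21 (95% interval 1.01 to 1.46), which did not pass (limma adjusted p = 0.242). Lysmd4, on the other strand, shares 302 exon bases with Mef2a, 2.06% of its merged exon. Mef2d (chromosome 3, 88142372 to 88172086) measured 1320.2, 1389.7 and 1475 normalised reads in wild-type 1, 2 and 3, against 1571, 1699.6 and 1360.0 in knock-out 1, 2 and 3. Knock-out 3 lay within the wild-type range, and the fold was 1.10 (0.93 to 1.31, adjusted p = 0.558). Mef2b was not tested.

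Among the partners of MEF2, Hdac9 was the 1 of 9 tested that passed the limit. Of all genes tested, 3.60% rose and 2.64% fell. Hdac9 encodes a class IIa histone deacetylase that binds MEF2 and represses its targets, and MEF2 in turn is known to activate it in muscle. It had 113 to 127 normalised reads in wild-type and 202 to 440.4 in knock-out libraries, a 2.30-fold rise (1.49 to 3.53, limma adjusted p = 0.0384). It did not pass when wild-type 1, 2 or 3 or knock-out 2 was left out (adjusted p = 0.113, 0.131, 0.119 and 0.0892), nor with the pericyte (0.0506) or Y-linked level (0.107) as a covariate. The median log2 change of the 9 partners was 0.01.

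Of 6 genes known to be transcribed under ERK5 or MEF2, Klf4 and Thbd rose, none fell and 4 were not called. This stands beside 3.60% risen and 2.64% fallen among all genes tested. Thbd, which encodes the anticoagulant receptor thrombomodulin, went from 776 to 824 normalised reads in wild-type to between 1967 and 3176 in knock-out libraries (limma adjusted p = 0.0018). Klf4, a transcription factor of quiescent and flow-exposed endothelium, had 5635 to 6386 in wild-type and 8954 to 12757 in knock-out libraries. It did not pass once wild-type 1 was left out (adjusted p = 0.0502). Klf2, named after its values were seen, had 2784 to 3433 and 3796 to 5908, with no overlap and an adjusted p of 0.0676. The median log2 change of these 6 genes was 0.48, beside -0.01 for all genes tested. This list too was chosen with earlier results of these data known, so its median is a description. Nr4a1 and Jun of this list are also among the genes induced by tissue dissociation, and the part of dissociation was not tested.

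Dusp1 encodes a nuclear phosphatase that acts on p38, JNK and ERK and is itself an immediate early gene. It lies on chromosome 17, 26505590 to 26562128, on the minus strand. It measured 3809.9, 3945 and 3233 normalised reads in wild-type 1, 2 and 3, against 5312, 5155 and 4211 in knock-out 1, 2 and 3. All knock-out libraries were above all wild-type libraries, and library 3 was lowest in both groups. The fold was 1.33 (95% interval 1.10 to 1.62), and the limma adjusted p of 0.102 did not pass. It passed with DESeq2 (0.0204), with the pericyte level as a covariate (0.0422) and without knock-out 3 (0.0364), and had an adjusted p of 0.0717 with the replicate block. Genes induced by tissue dissociation, a class Dusp1 belongs to, summed to 44739 to 57939 in wild-type and 52124 to 60708 in knock-out libraries. These sums overlapped, and 1 of the 14 genes, Atf3, rose, beside 3.60% of all genes tested. The part of dissociation in the values of Dusp1 was not tested. Ergic1, on the opposite strand, shares 11 exon bases with Dusp1.

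Dusp6 encodes a cytoplasmic phosphatase specific for ERK1/2 and is one of the most direct transcriptional readouts of that pathway. It lies on chromosome 10, 99263231 to 99267489, on the plus strand. It measured 3682, 3564 and 3422 normalised reads in wild-type 1, 2 and 3, against 3853, 3617 and 3571 in knock-out 1, 2 and 3. The groups overlapped, with knock-out 2 and 3 inside the wild-type range. The fold was 1.03, and its 95% interval ran from 0.906 to 1.18 (limma adjusted p = 0.826). No alternative called it.

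Of 7 other MAP kinase phosphatases tested, Dusp5, Dusp8 and Dusp10 rose, none fell and 4 were not called. Among all genes tested, 3.60% rose and 2.64% fell. Dusp5, a nuclear phosphatase specific for ERK1/2, had 128 to 157 normalised reads in wild-type and 294 to 367 in knock-out libraries, a 2.25-fold rise (1.77 to 2.87, limma adjusted p = 0.0044). Dusp8 and Dusp10, which act on JNK and p38, had 204 to 248 and 71.3 to 90.1 in wild-type, and 409 to 449.6 and 160.1 to 174 in knock-out libraries. Their folds were 1.93 (1.59 to 2.35) and 1.99 (1.53 to 2.60). The median log2 change of the 7 was 0.35, beside -0.01 for all genes tested. Leaving out wild-type 1 or 2 ended the call of Dusp10 (adjusted p = 0.0543 and 0.0539).

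Spry1 encodes a Sprouty protein that restrains Ras-ERK signalling below receptor tyrosine kinases. It lies on chromosome 3, 37639947 to 37644598, on the plus strand. It measured 728, 724 and 703 normalised reads in wild-type 1, 2 and 3, against 616, 439 and 439 in knock-out 1, 2 and 3. All knock-out libraries were lower, and knock-out 1 lay between the others and wild-type. Wild-type averaged 719 ± 13.4 and knock-out 498 ± 102 (SD, n = 3). The log2 change of -0.55 (SE 0.15) had a limma adjusted p of 0.0697, and of 0.0711 with the replicate block. It passed without knock-out 1 (0.00966), with array weights (0.0145) and with DESeq2 (0.0235), but not with edgeR (0.0799). The summed astrocyte markers, which Gja1 dominates, were also lower in every knock-out library, and their part in the values of Spry1 was not tested.

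Spry2 and Spry4 encode Sprouty proteins of the same kind. Spry2 (chromosome 14, 105891947 to 105896819) measured 276, 250.3 and 153 normalised reads in wild-type 1, 2 and 3, against 355, 349 and 253 in knock-out 1, 2 and 3. Library 3 was lowest in both groups, and knock-out 3 lay within the wild-type range. The fold of 1.43 had a wide interval (0.976 to 2.10, limma adjusted p = 0.299). With the pericyte level as a covariate the log2 change was 0.74 (adjusted p = 0.0241), against 0.52 without it. Pericyte markers were also lowest in wild-type 3, with 42999, and in knock-out 3, with 43952. The part of pericytes was not tested beyond that fit. The log2 change of Spry2 was 0.26 without wild-type 3, the library that moved it most.

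Spry4 (chromosome 18, 38586247 to 38601415) measured 947, 908 and 890.2 normalised reads in wild-type 1, 2 and 3, against 1345, 1174 and 813 in knock-out 1, 2 and 3. Knock-out 1 and 2 were above every wild-type library and knock-out 3 was below all of them. The fold was 1.19 (95% interval 0.901 to 1.57, limma adjusted p = 0.519). Without knock-out 3 the log2 change was 0.46 and passed (adjusted p = 0.0423), and without knock-out 1 it was 0.095.

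Spred1 encodes a relative of Sprouty that recruits neurofibromin to Ras, and in humans its loss causes Legius syndrome. It lies on chromosome 2, 117121374 to 117182279, on the plus strand. It measured 1486, 1311 and 1270.3 normalised reads in wild-type 1, 2 and 3, against 1268, 1079 and 1048 in knock-out 1, 2 and 3. The groups did not overlap, but knock-out 1 and wild-type 3 differed by little. The fold was 0.834 (95% interval 0.699 to 0.995, limma adjusted p = 0.251), and no alternative called it.

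**Figure D3:**
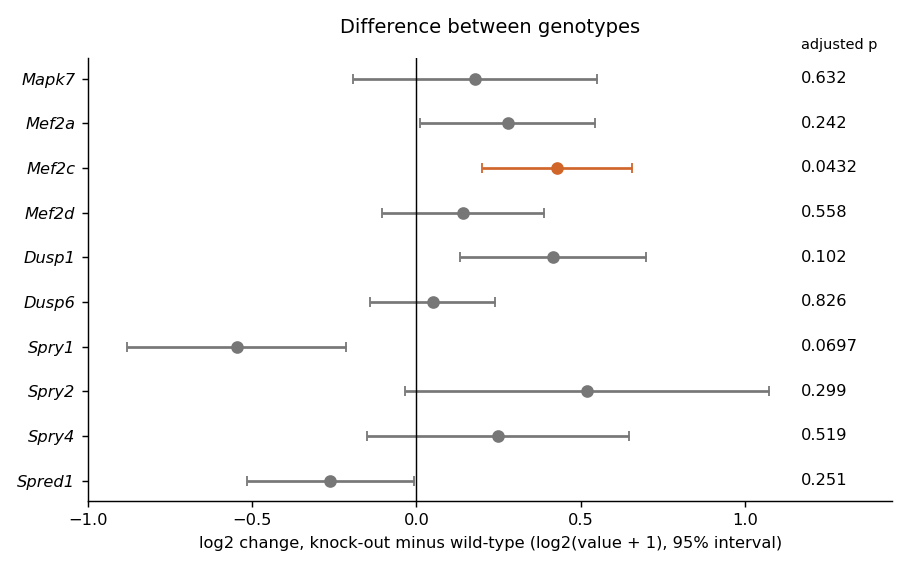
Log2 change (x axis, knock-out minus wild-type on log2(value + 1)) of each gene with its 95% interval from limma over 6 libraries, and the adjusted p at the right. Mef2c, in orange, is the gene that passed. Spry1, at -0.55, and Spry2, at 0.52, stand furthest from 0.

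**Figure D4:**
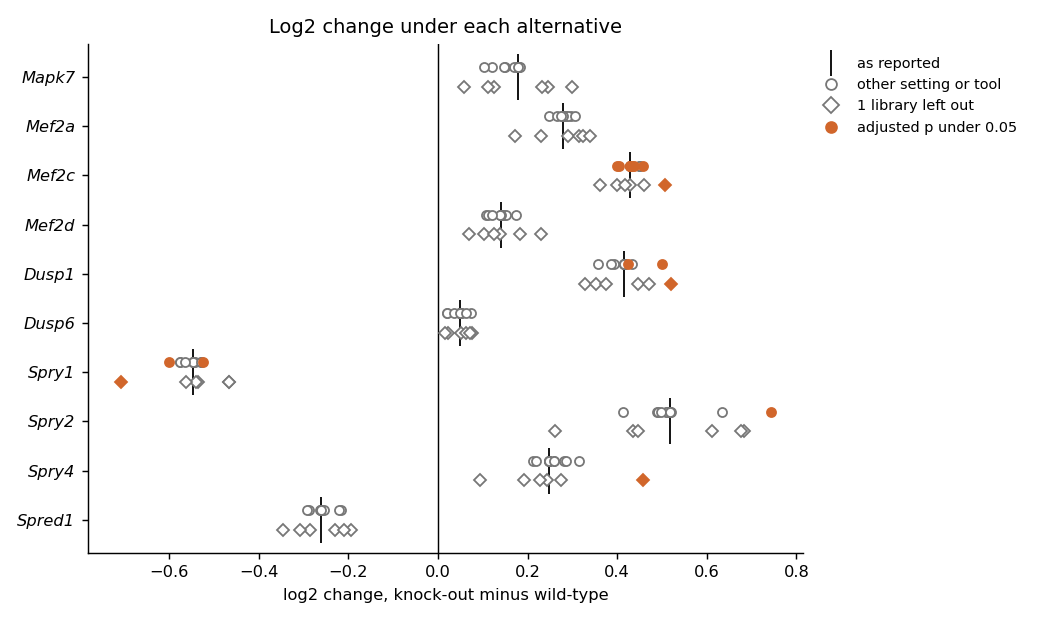
Log2 change (x axis, knock-out minus wild-type) of each of the 10 genes as reported (black bar), under 12 other settings or tools (circles) and without each library (diamonds). Filled orange symbols have an adjusted p under 0.05. No symbol crosses 0 to the other side of its bar, and orange symbols occur for Mef2c, Dusp1, Spry1, Spry2 and Spry4.

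Of 12 other inhibitors of receptor, Ras or ERK signalling, 3 rose, none fell and 9 were not called. The shares over all genes tested were 3.60% risen and 2.64% fallen. Errfi1, an inhibitor of the EGF receptor, rose 2.02-fold (1.53 to 2.67) from 355 to 387 normalised reads in wild-type to between 579 and 959 in knock-out libraries. Spred3, a relative of Spred1, rose 1.91-fold (1.40 to 2.59) from lower values of 104 to 119. Dab2ip, a Ras GTPase-activating protein, rose 1.30-fold (log2 change 0.38, SE 0.09, limma adjusted p = 0.0425, or 0.0911 with the replicate block). Spred2 had a fold of 1.00, chosen for mention after its value was seen, and the median log2 change of the 12 was -0.01. Leaving out 1 library ended the call of Errfi1 in 4 of 6 fits and of Spred3 and Dab2ip in 5 of 6 each. Their highest adjusted p were 0.0628, 0.123 and 0.175, each without wild-type 2. With the Y-linked level as a covariate none of the 3 passed (0.0501, 0.0925 and 0.101), and Spred3 did not with the pericyte level (0.0551).

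Of 21 members of the cascade from adaptors to ERK1/2 and its RSK kinases, 2 fell and none rose. Among all genes tested, 2.64% fell and 3.60% rose. The 2 that fell are named here. They were Rps6ka1 and Rps6ka2, which encode RSK kinases activated by ERK1/2. Rps6ka1 went from 563 to 616 normalised reads in wild-type to between 329 and 386 in knock-out libraries, and Rps6ka2 went from 802 to 824 to between 469.6 and 569.9. Their folds were 0.62 (0.52 to 0.74, limma adjusted p = 0.0102) and 0.63 (0.53 to 0.74, adjusted p = 0.0096). The other 19 were not called, and the median log2 change of the cascade was -0.03. Rps6ka1 did not pass when wild-type 1 or 2 was left out (adjusted p = 0.0577 and 0.0712), nor Rps6ka2 when wild-type 2 was (0.0639).

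Of 10 tested genes used as readouts of ERK1/2 activity outside the 10 named above, Epha2 rose, none fell and 9 were not called. Among all genes tested, 3.60% rose and 2.64% fell. Epha2 encodes an ephrin receptor and rose 1.85-fold (1.53 to 2.24) from 840 to 876 normalised reads in wild-type to between 1383 and 1864 in knock-out libraries (limma adjusted p = 0.0053). The median log2 change of these readouts was 0.30, beside -0.01 for all genes tested. Fos and Egr1 of this list are also among the genes induced by tissue dissociation, and the part of dissociation was not tested.

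Among 10 tested kinases of the p38 and JNK arms, Map2k6 fell (2.64% of all genes tested did) and none rose (3.60%). Map2k6, which activates p38, went from 228 to 257 normalised reads in wild-type to between 71.7 and 101 in knock-out libraries (fold 0.35, 0.27 to 0.46, limma adjusted p = 0.0027), and the list's median log2 change was 0.10. Among 14 growth factor receptors, Met and Igf1r fell, 12 were not called and none rose, to be read against the same shares. Their median log2 change was 0.05. Met, the receptor of hepatocyte growth factor, went from 32.0 to 50.6 normalised reads in wild-type to between 9.43 and 14.4 in knock-out libraries. Igf1r, the receptor of insulin-like growth factor, had a fold of 0.73 (0.61 to 0.86) and an adjusted p of 0.0443, which was lost in each of the 6 fits without 1 library (0.0571 to 0.14) and with the replicate block (0.0745). Leaving out any 1 wild-type library ended the call of Met (adjusted p = 0.0813, 0.0772 and 0.0937). Neither Met nor Igf1r passed with the Y-linked level as a covariate (0.0668 and 0.0724).

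**Figure D5:**
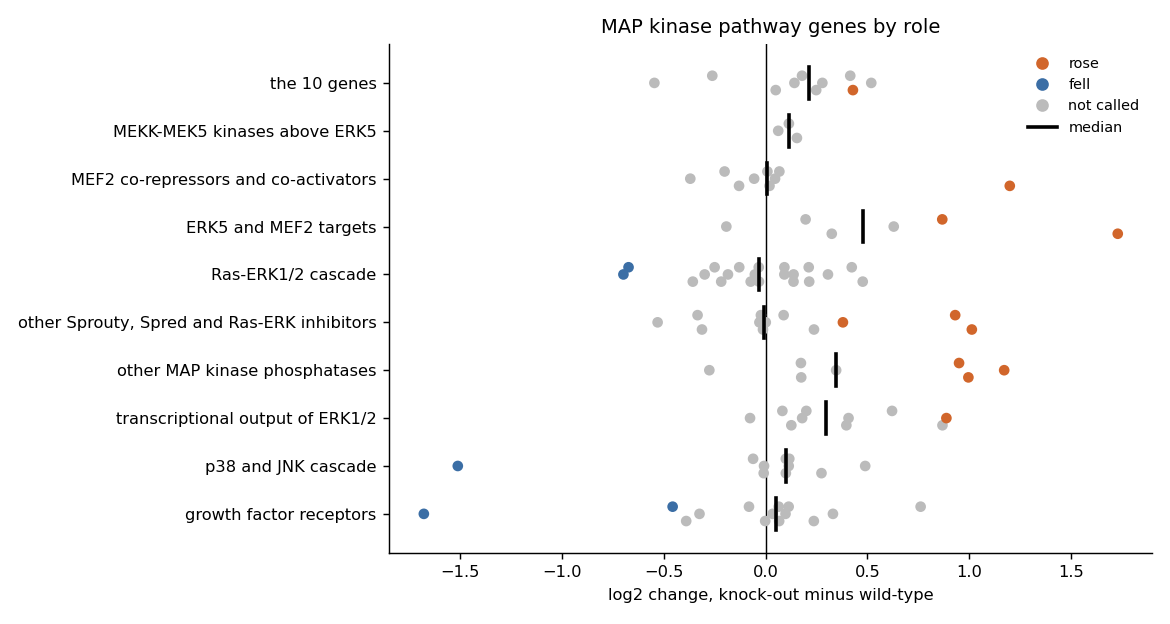
Log2 change (x axis, knock-out minus wild-type) of each tested gene, by list (rows), with genes that rose in orange, fell in blue and were not called in grey. The black bar is the list's median, 0.21 for the 10 genes and 0.48 for targets of ERK5 and MEF2. The median of all genes tested was -0.01.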

How the data were processed

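RNA-seq of 6 libraries was compared, 3 wild-type and 3 knock-out, grouped by sample title. Per the submitters' processing notes, Trim Galore, STAR 2.5.3a, build GRCm38 and DESeq2 were used. The counter, annotation, gene filter and strand setting were not given in the sources used here. The deposited values are a normalised signal: in each library, the authors scaled its gene counts by a single factor. With a tolerance of 0.01, 100.0% of the values were whole reads, which were recovered (170 to 12471 reads for the 10 genes). The filter kept genes reaching 10 in 3 or more libraries. Their values were fitted as log2(value + 1) with limma 3.58.1 (R 4.3.3, two-sided, trended empirical Bayes), with Benjamini-Hochberg adjustment over all 14076 genes. These fold changes understate the change of low genes. edgeR 4.0.16 (quasi-likelihood) and DESeq2 1.42.0 were run on the recovered reads, and all 3 tools were tested on simulated data. The other alternatives were pseudocounts of 0.5 and 5, no filter or a minimum of 50, quantile and upper-quartile scaling, array weights, a replicate block, the pericyte or Y-linked level as a covariate, and leaving out each library. The pericyte or Y-linked level used as a covariate was the mean log2(value + 1) of the listed markers in a library, not their sum. Each library is labelled as from its own mouse.

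Pathway genes named in the text are up to 4 called per list, or else the 2 of smallest p. The 10 genes and all lists were chosen with earlier results of these data known. Both groups are numbered 1 to 3, with no stated link between numbers. The deviations of same-numbered libraries from their group means correlated at 0.101, 0.110 and 0.192 over genes, each over 0.1. The fit with the replicate block is therefore given beside results whose call it changes. Crossed pairs ran from -0.381 (wild-type 3 with knock-out 2) to 0.295 (wild-type 1 with knock-out 2), with 0.191 for wild-type 2 with knock-out 3. Mef2b, Spry3, Dusp9, Dusp14, Fosl1 and Mapk13 of the lists were not tested. Exon lengths and positions are from GENCODE M21, and promoters from RefSeq.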

Additional observations from a re-analysis of the deposited data

How the results depend on the processing

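All 10 genes kept their direction in each of 18 alternatives, and 5 of them were called in none. One called gene became 3 with DESeq2, 2 with array weights, 2 with the pericyte level in the fit, 0 with the replicate block, 0 with the Y-linked level and 0 to 3 without 1 library. The count over all genes, 879, was 1373 with DESeq2, 1217 with array weights and 795 with the pericyte level. It was 769 with the replicate block, 457 with the Y-linked level and 283 to 1032 without 1 library. Mef2c had a log2 change of 0.43, 0.45 and 0.45, not called, with the replicate block, the pericyte and the Y-linked level, and 0.36 to 0.51 without 1 library. Dusp1 was called at 0.42 with DESeq2 and 0.50 with the pericyte level (0.33 to 0.52 without 1 library), Spry1 at -0.52 with DESeq2 and -0.60 with array weights (-0.71 to -0.47), and Spry2 at 0.74 with the pericyte level. Spry4 ranged from 0.095 to 0.46 without 1 library. The cause of these differences was not tested.

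The replicate block changed no other call among the 10 genes. Of the pathway genes named, Thbd, Dusp5, Dusp8, Epha2 and Map2k6 were called in all 18 alternatives, which were applied to them after their calls were seen. With 3 libraries per group, both the spread between them and depth limit precision. The fewest reads of any of the 10 genes in a library, 170, give a counting error of 7.67%.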

Other observations

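Libraries of a genotype kept a common order over many of the 10 genes. Knock-out 1 was highest among the knock-out libraries for 8 of the 10 and knock-out 3 was lowest for 8. In wild-type, library 1 was highest for 6 and library 3 lowest for 6, namely Dusp1, Dusp6, Spry1, Spry2, Spry4 and Spred1. Summed pericyte markers were also lowest in wild-type 3 (42999) and knock-out 3 (43952), as were the genes induced by tissue dissociation (44739 and 52124). Their part in this order was not tested. Mapk7 ran the other way in the knock-out, lowest in knock-out 1 and highest in knock-out 3. These are counts over genes that share libraries, given as a description.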
